A study of Mus musculus with 8 samples.

Results

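The genes described here are 10 genes of the FoxO atrophy programme of skeletal muscle, measured in mice carrying the dynamin 2 K562E mutation. They were chosen by name and comprise the transcription factors Foxo1, Foxo3 and Foxo4, the transcription factor Klf15, and 6 ubiquitin ligase genes known from wasting muscle, Trim63, Fbxo32, Fbxo30, Fbxo31, Fbxo40 and Fbxo21. All 10 have a row among the 22880 gene IDs with counts, and all 10 passed the filter on low counts that left 14001 genes for testing. RNA came from the soleus, a slow muscle of the lower leg, and was sequenced for 4 control mice (Dnm2 +/+) and 4 Dnm2 wt/K562E mice (Dnm2 +/K562E in the labels), all male, 2 months old and of C57BL/6 background by the labels (C57bl/6 J in the methods of the study). The mutation was introduced into the endogenous Dnm2 gene by homologous recombination and is present in all cells, with 1 wild-type allele kept. The study asked which transcripts differ in muscle that carries the mutation.

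FoxO proteins are forkhead transcription factors that insulin and IGF signalling keeps out of the nucleus through phosphorylation by Akt. When this signalling falls, or when glucocorticoids rise, they enter the nucleus and raise genes for protein breakdown by the proteasome and by autophagy. Trim63 (also called MuRF1) and Fbxo32 (atrogin-1 or MAFbx) encode the muscle ubiquitin ligases that classically rise in wasting muscle, Trim63 being a RING ligase of sarcomere proteins and Fbxo32 the substrate-binding subunit of an SCF complex. Klf15 is a transcription factor induced by glucocorticoids that raises genes of amino acid breakdown.

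The upstream sequences of Trim63 and Klf15 are shown because these genes had the largest fold changes of the 10. Each is the 250 bases before the RefSeq transcription start in GRCm38.p6, both on the plus strand. The Trim63 sequence lies at chr4:134314870-134315119, and its capitals mark matches to GTAAACA, the core that FoxO proteins bind, to TGTTCT, one arm of the glucocorticoid response element, and to CAGCTG, an E-box of myogenic factors. The Klf15 sequence lies at chr6:90462326-90462575, and its capitals mark CACGTG, the E-box of clock proteins.
Trim63: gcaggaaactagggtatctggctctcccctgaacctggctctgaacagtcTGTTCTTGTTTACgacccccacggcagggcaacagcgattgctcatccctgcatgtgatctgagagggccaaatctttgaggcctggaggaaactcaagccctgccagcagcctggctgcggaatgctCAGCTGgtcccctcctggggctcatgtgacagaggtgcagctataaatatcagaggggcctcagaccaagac
Klf15: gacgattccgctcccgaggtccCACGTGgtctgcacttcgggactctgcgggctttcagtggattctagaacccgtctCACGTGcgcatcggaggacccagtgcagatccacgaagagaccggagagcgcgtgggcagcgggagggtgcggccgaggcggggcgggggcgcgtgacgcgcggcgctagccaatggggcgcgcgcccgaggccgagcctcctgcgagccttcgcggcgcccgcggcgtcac
Both strands were searched. In Trim63 the FoxO core lay on the minus strand from -194 to -188 relative to the start, directly after TGTTCT at -200 to -195, and CAGCTG lay at -72 to -67. The FoxO core occurs in 3.17%, TGTTCT in 16.1% and CAGCTG in 13.0% of 32851 mouse windows of the same kind. The first 2 occur together in 227 of these windows, and 4 hold them directly side by side. That arrangement was taken from the Trim63 sequence, so its rarity is a description only. Klf15 held CACGTG at -228 to -223 and at -172 to -167, a motif found in 6.02% of windows. Of the 10 genes, 8 had an entry in the RefSeq promoter table, and Fbxo32 and Foxo4 did not. Fbxo40 also held CAGCTG, at -81 to -76 and -53 to -48 in window 1 and at -89 to -84 in window 2. Window 2 of Fbxo40 held TGTTCT as well, on the minus strand at -176 to -171. The FoxO core and its variant GTAAATA, which occurs in 2.73% of windows, were found in none of the windows of Fbxo30, Fbxo31, Fbxo40, Fbxo21, Foxo1, Foxo3 and Klf15, which says only that these letters are not in these 250 bases. The full glucocorticoid element, AGAACA and TGTTCT separated by any 3 bases, was found in 3 of the 32851 windows and in none of these genes. These matches are letters in a sequence, and no binding was measured.

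The libraries held 33407430 to 48832814 counts per mouse, and any of the 10 genes had at least 575 counts in every mouse. Values are given as normalized CPM, the CPM unit corrected by the TMM factors of edgeR, which lay between 0.91 and 0.96 for controls and between 1.04 and 1.10 for the mutant mice. Scaling by library size alone therefore raised the median log2 fold change of all tested genes from 0.01 to 0.22, and calls of the genes named here that change with this choice are given beside them. Dnm2 transcripts of both alleles together averaged 66.3 ± 4.74 normalized CPM in controls and 73.4 ± 2.43 in mutant mice (SD, n = 4 each), a log2 fold change of 0.15 (adjusted p = 0.0909, quasi-likelihood test of edgeR, Benjamini-Hochberg adjusted). All mutant mice lay above all controls for Dnm2, and with library size alone it was called higher (0.36, adjusted p = 0.00271, same test). None of the 10 genes had exons overlapping another counted gene, and at most 8.002% of their 31-base stretches, the share of Foxo1, occur in other genes.

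In Dnm2 wt/K562E soleus, 5 of the 10 genes were lower, namely Foxo1, Foxo4, Klf15, Trim63 and Fbxo31, and 0 were higher (threshold 0.05 on the p adjusted over all tested genes, quasi-likelihood test of edgeR). Foxo3, Fbxo32, Fbxo30, Fbxo40 and Fbxo21 did not pass the test. Over all tested genes, 43.8% were called in either direction, 21.7% as lower and 22.2% as higher, so that many genes differed between the genotypes and the 5 of 10 are read against that share. With the log2 limit of 0.58 in either direction that the study set as well, 4 of the 10 genes were lower, against 7.85% of all tested genes. The 10 genes were chosen with earlier results of these data known, so that these counts are not independent evidence. The median log2 fold change of the 10 genes was -0.29, against 0.01 for all tested genes. Foxo4, Klf15 and Fbxo31 did not overlap between the genotypes, and 20.5% of all tested genes were lower without overlap. In bulk tissue, less RNA of a gene per cell and fewer cells that express it cannot be told apart.

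**Figure D1:**
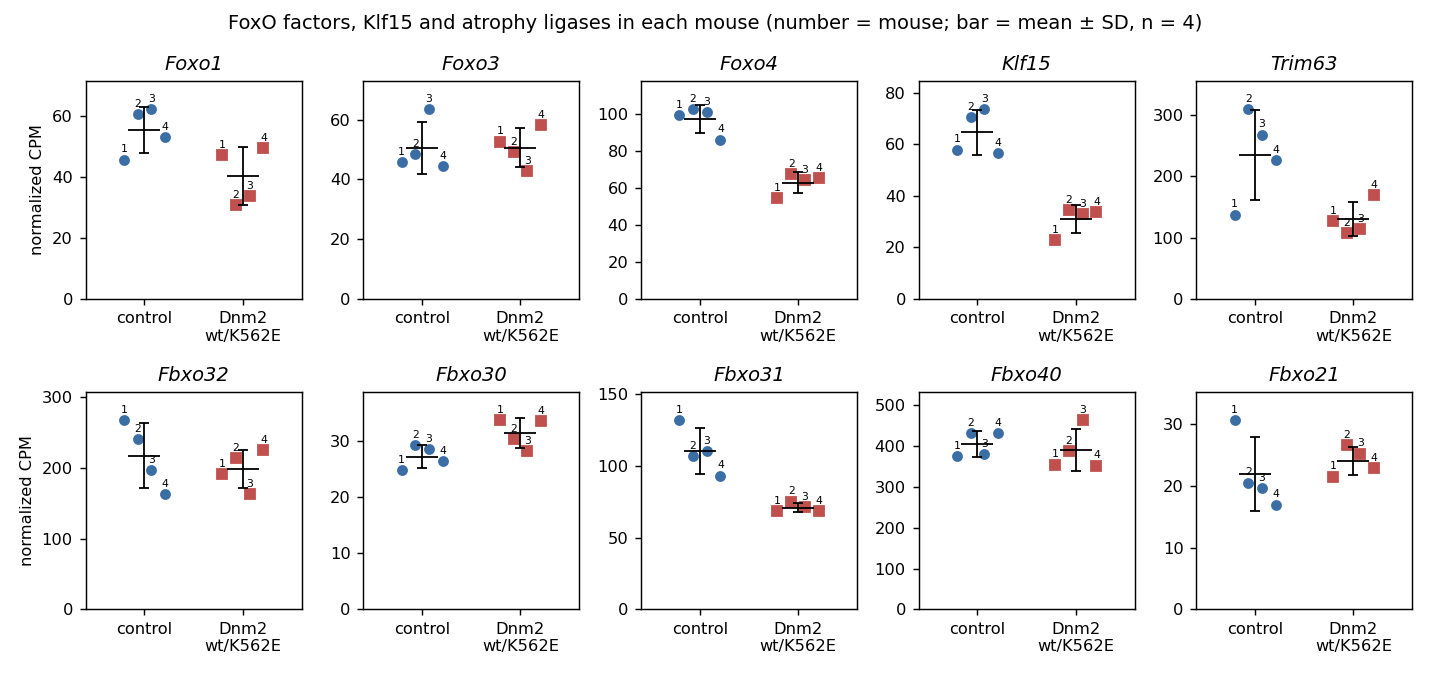
Normalized CPM of the 10 genes in each mouse, 1 panel per gene with its own axis from 0, controls as circles and Dnm2 wt/K562E mice as squares numbered by mouse, and bars for the mean ± SD (n = 4 each). Foxo4, Klf15 and Fbxo31 separate the genotypes completely, Trim63 separates them except for control 1, and Foxo3, Fbxo32 and Fbxo40 do not separate them.

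Among the FoxO factors, Foxo4 fell and Foxo1 fell less clearly, while Foxo3 showed no difference. Foxo4 (ENSMUSG00000042903, chromosome X, 101254528 to 101260873) stood at 99.2, 102.4, 101.0 and 86.1 normalized CPM in controls 1 to 4 and at 54.3, 67.3, 64.3 and 65.4 in Dnm2 wt/K562E mice 1 to 4. Every mutant mouse was below every control. The log2 fold change was -0.63 ± 0.08 (SE, adjusted p = 0.000141, same test), which leaves 64.6% of the control level. Foxo1 (ENSMUSG00000044167, chromosome 3, 52268336 to 52353221), the FoxO factor best known for raising metabolic and atrophy genes in fasted muscle, was at 45.6, 60.6, 62.0 and 53.0 normalized CPM in controls and at 46.9, 30.7, 33.7 and 49.4 in mutant mice. Mutant mice 1 and 4 lay above control 1, so the groups overlapped. The log2 fold change of Foxo1 was -0.46 ± 0.16 (SE, adjusted p = 0.0334, same test).

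The call of Foxo1 was the weakest of the 5. It was lost with library size alone (log2 fold change -0.25, adjusted p = 0.189, same test) and when control 2, control 3, mutant mouse 2 or mutant mouse 3 was left out, with adjusted p from 0.0825 to 0.0922 (same test) and log2 fold changes from -0.42 to -0.35. Foxo3 (ENSMUSG00000048756, chromosome 10, 42181841 to 42276755), which drives both the ligase and the autophagy branch in muscle, lay between 44.5 and 63.5 normalized CPM in controls and between 42.8 and 58.2 in mutant mice. Its log2 fold change was 0.00, with a 95% interval from -0.27 to 0.28, so that a difference of either sign within these bounds remains possible.

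Klf15 (ENSMUSG00000030087, chromosome 6, 90462576 to 90475238) had the largest difference of the 10 genes. It was at 57.9, 70.5, 73.6 and 56.6 normalized CPM in controls and at 22.7, 34.5, 33.03 and 33.7 in Dnm2 wt/K562E mice. The highest mutant mouse was below the lowest control, and mutant mouse 1 lay well below the other mutant mice. The mean fell from 64.7 ± 8.63 to 30.96 ± 5.57 (SD, n = 4 each), a log2 fold change of -1.06 ± 0.14 (SE, adjusted p = 0.000125, same test). Without mutant mouse 1 the log2 fold change was -0.94, and over all 17 alternatives it ran from -1.13 to -0.85 with an adjusted p of at most 0.00106.

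The classical wasting ligases did not rise. Trim63 (ENSMUSG00000028834, chromosome 4, 134315120 to 134329629) was at 137.4, 309.4, 268.3 and 226.6 normalized CPM in controls and at 127.3, 107.5, 114.2 and 169.5 in Dnm2 wt/K562E mice. Controls 2 to 4 lay above all mutant mice, whereas control 1 lay within their range. The mean fell from 235.4 ± 73.6 to 129.6 ± 27.8 (SD, n = 4 each), with a log2 fold change of -0.86 ± 0.22 (SE, adjusted p = 0.00873, same test). All 17 alternatives kept Trim63 lower past the threshold, from -0.65 with library size alone to -1.06 without control 1. Fbxo32 (ENSMUSG00000022358, chromosome 15, 58175879 to 58214932) was at 267.9, 240.8, 197.6 and 163.6 normalized CPM in controls and at 191.5, 214.6, 163.4 and 225.5 in mutant mice. The genotypes overlapped over most of their range, and the log2 fold change of -0.13 ± 0.15 (SE, adjusted p = 0.503, same test) had a 95% interval from -0.45 to 0.19. With library size alone its sign turned (0.08).

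Of the other F-box genes, only Fbxo31 passed the test. Fbxo31 (ENSMUSG00000052934, chromosome 8, 121549440 to 121578806), whose protein targets cyclin D1 after DNA damage, was at 132.1, 107.2, 110.7 and 93.4 normalized CPM in controls and at 68.7, 75.3, 71.3 and 68.6 in Dnm2 wt/K562E mice. The mutant mice were close to each other and all below the controls. Its log2 fold change was -0.64 ± 0.09 (SE, adjusted p = 0.000285, same test). Fbxo40 (ENSMUSG00000047746, chromosome 16, 36963460 to 36990467), a muscle-restricted ligase subunit that targets the insulin receptor substrate IRS1, lay between 375.5 and 432.2 normalized CPM in controls and between 351.9 and 463.1 in mutant mice. Its log2 fold change was -0.05, with a 95% interval from -0.26 to 0.15, and with library size alone the sign turned (0.16).

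Fbxo30 (ENSMUSG00000047648, chromosome 10, 11281330 to 11298052) encodes MUSA1, a ligase subunit that BMP signalling holds down. It was at 24.8, 29.3, 28.5 and 26.4 normalized CPM in controls and at 33.7, 30.3, 28.3 and 33.5 in mutant mice, where only mutant mouse 3 lay within the control range. The log2 fold change of 0.21 (95% interval 0.03 to 0.39) missed the threshold (adjusted p = 0.0587, same test). It passed with library size alone (0.42, adjusted p = 0.00177), with at least 10 counts asked for in every mouse (0.22, adjusted p = 0.0470) and without mutant mouse 3 (0.26, adjusted p = 0.0345, all same test). Fbxo21 (ENSMUSG00000032898, chromosome 5, 117976730 to 118010201), the ligase subunit called SMART, lay between 16.9 and 30.6 normalized CPM in controls and between 21.5 and 26.6 in mutant mice. Control 1 was the highest mouse for Fbxo21, and without it the log2 fold change rose from 0.13 to 0.33 (adjusted p = 0.0199, same test).

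**Figure D2:**
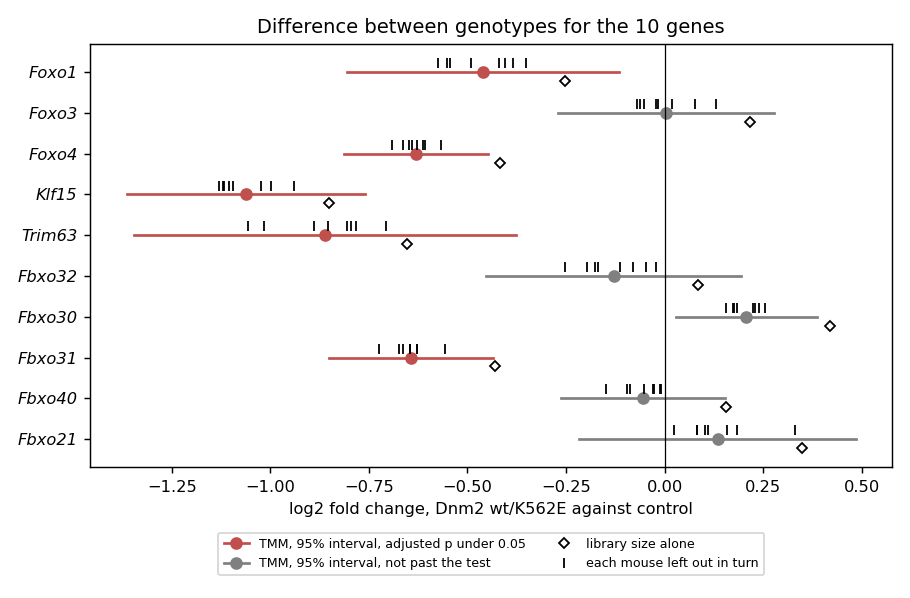
Log2 fold change of each gene, Dnm2 wt/K562E against control, with its 95% interval (circles and lines, 4 mice per genotype), the value with library size alone (open diamonds) and the values with each mouse left out in turn (ticks). Klf15, Trim63, Fbxo31, Foxo4 and Foxo1 stay below 0 in all of them, and library size alone moves every gene to the right, Fbxo32 and Fbxo40 across 0.

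Divided by exon length, which allows genes to be compared, the levels of the 10 genes in controls fell into an upper and a lower group. Trim63 had the highest mean (82.8 ± 25.9 normalized CPM per kilobase of exon, SD, n = 4) and Fbxo40 the next (73.3 ± 5.70), with overlapping ranges. Fbxo32 (31.2 ± 6.61), Foxo4 (27.9 ± 2.15), Klf15 (23.2 ± 3.09) and Fbxo31 (20.2 ± 2.92) followed, each overlapping in range with the next. Below a gap came Foxo3 (6.67 ± 1.16), Foxo1 (6.38 ± 0.875), Fbxo30 (5.24 ± 0.392) and Fbxo21 (3.95 ± 1.08), again with overlapping neighbours. Foxo4 was therefore the most abundant of the 3 FoxO transcripts per length in both genotypes. In Dnm2 wt/K562E mice Fbxo40 was highest (70.6 ± 9.40) and Trim63 next (45.6 ± 9.79), this time without overlap between their ranges. Klf15 (11.1 ± 2.00) came below Fbxo31 (12.9 ± 0.576) there, and Foxo1 (4.64 ± 1.08) below Fbxo30 (6.06 ± 0.509), the last 2 with overlapping ranges.

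**Figure D3:**
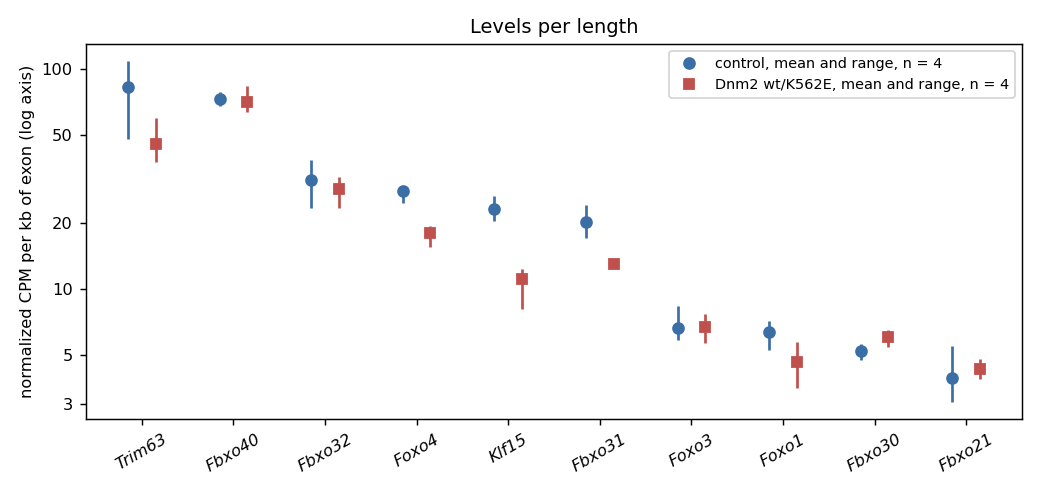
Mean and range over 4 mice of normalized CPM per kilobase of exon (log axis) for the 10 genes in the order of the control means, controls as circles and Dnm2 wt/K562E mice as squares. The lowest value among the 6 genes on the left is 8.12 (Klf15 in a mutant mouse), and the 4 genes on the right reach at most 8.38 (Foxo3 in a control).

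Ratios of 2 genes within one library do not depend on the scaling between libraries, and 3 were compared with exact two-sided permutation tests, whose smallest possible p for 4 against 4 mice is 0.0286. The log2 ratio of Foxo1 to Foxo3 was -0.01, 0.33, -0.03 and 0.25 in controls and -0.17, -0.68, -0.34 and -0.24 in Dnm2 wt/K562E mice. All mutant mice were below all controls, by 0.49 on average (exact permutation p = 0.0286, 0.0857 after Benjamini-Hochberg adjustment over the 3 ratios). The log2 ratio of Trim63 to Fbxo32 was -0.96 in control 1 and 0.36, 0.44 and 0.47 in controls 2 to 4, against -0.59, -0.998, -0.52 and -0.41 in mutant mice. The difference of -0.71 was not past the threshold with all mice (exact permutation p = 0.114, adjusted 0.114), and without control 1 it was -1.05 with no overlap (exact permutation p = 0.0286, the smallest that 3 against 4 mice allow). With any other mouse left out the exact permutation p was 0.114 to 0.2. The log2 ratio of Klf15 to Foxo1 averaged 0.23 ± 0.10 in controls and -0.37 ± 0.55 in mutant mice (SD, n = 4 each), a difference of -0.59 (exact permutation p = 0.0571, adjusted 0.0857). It ranged from -1.05 in mutant mouse 1 to 0.17 in mutant mouse 2.

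**Figure D4:**
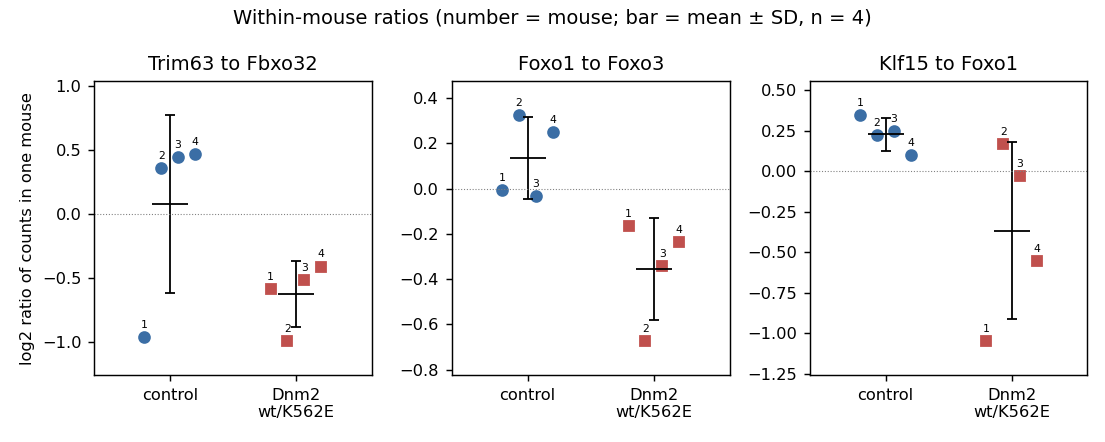
Log2 ratio of the counts of 2 genes in each mouse (numbered), with mean ± SD (n = 4 each), controls as circles and Dnm2 wt/K562E mice as squares. Only Foxo1 to Foxo3 separates the genotypes completely, and control 1 sits among the mutant mice for Trim63 to Fbxo32.

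The genes also varied among mice of the same genotype, and some pairs varied together or in opposite directions. Deviations of log2 CPM from the genotype means were correlated over the 8 mice, which share library depth and sampling within each mouse, and the values are given as a description. Trim63 went with Foxo1 (Pearson r = 0.79) and with Fbxo30 (0.81), and Fbxo30 with Foxo1 (0.89) and Foxo3 (0.72). Fbxo31 went with Fbxo21 (0.96) and Fbxo32 (0.70), and Foxo4 with Klf15 (0.89). Trim63 went against Fbxo21 (-0.74) and Fbxo31 (-0.65), and both values changed without control 1, which was the lowest control for Trim63 and the highest for Fbxo21, Fbxo31 and Fbxo32. Without it they were -0.08 and 0.03 over 7 mice, and the correlation of Trim63 with Fbxo32 went from -0.14 to 0.69. The correlations of Trim63 with Foxo1 (0.82) and of Foxo4 with Klf15 (0.98) were as high without control 1. That of Fbxo31 with Fbxo32 fell to 0.49. Fbxo21 then went with Foxo4 (0.875, from 0.511) and with Klf15 (0.81, from 0.11), so the pairs do not form fixed sets. Fbxo40 went against Foxo3 with and without control 1 (-0.705 and -0.877).

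The list of genes that act on the FoxO factors had calls in both directions. Of 22 genes, which comprise insulin and energy signalling, cofactors and modifiers of FoxO proteins and the further FoxO factor gene Foxo6, 2 were higher, 7 lower and 13 did not pass the test, with a median log2 fold change of -0.22. With library size alone the split was 5 higher and 4 lower. The insulin receptor gene Insr fell from 120.0 ± 3.85 to 82.1 ± 3.65 normalized CPM (SD, n = 4 each, log2 fold change -0.55, adjusted p = 2.55e-05, same test), while the IGF receptor gene Igf1r rose from 9.07 ± 1.87 to 13.1 ± 1.95 (0.53, adjusted p = 0.0151, same test). Foxo6, named as the lower end of the range, fell from 8.57 ± 1.31 to 4.601 ± 1.00 (-0.89, adjusted p = 0.00154, same test). The catalytic subunits of the energy sensor AMPK moved apart. Prkaa2, the main form in muscle fibres, fell by 0.80 on the log2 scale, from 175.5 ± 9.61 to 101.0 ± 3.56, and Prkaa1 rose by 0.71, from 26.9 ± 2.04 to 44.0 ± 2.06 (adjusted p = 3.09e-06 and 2.34e-05, same test).

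Other target genes of FoxO factors did not move one way either. Of 27 such genes, 7 were higher, 5 lower and 15 did not pass the test, with a median of -0.06, and with library size alone 10 were higher and 3 lower. The largest increase was that of Gadd45a, a stress gene that also rises in denervated muscle, from 6.22 ± 1.97 to 19.0 ± 2.94 normalized CPM (log2 fold change 1.61, adjusted p = 8.54e-05, same test). The lysosomal protease gene Ctsl rose from 139.3 ± 3.37 to 223.0 ± 18.3 (0.68, adjusted p = 1.81e-05). The mitochondrial superoxide dismutase gene Sod2 fell from 258.1 ± 17.8 to 137.3 ± 5.18 (-0.91, adjusted p = 2.37e-06), and Bnip3, a mitophagy gene, from 431.8 ± 46.0 to 301.1 ± 14.7 (-0.52, adjusted p = 0.000384, all same test). The lowest value of the list was that of Mstn, the growth inhibitor myostatin, at -2.65 (adjusted p = 0.00857, same test), named here as the end of the range. Its controls spread from 0.985 to 8.80 normalized CPM (3.33 ± 3.67, SD, n = 4) and the mutant mice from 0.299 to 0.744, and without control 4 the log2 fold change was -1.51 (adjusted p = 0.0101, same test). Pdk4, which fasting raises through FoxO1, had a log2 fold change of 0.18 with an interval from -0.38 to 0.74, and was singled out after its value was seen. Between 17.0% and 57.0% of the 31-base stretches of Gadd45a, Ctsl, Sod2 and Bnip3 also occur in other annotated genes, which leaves their counts uncertain.

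The glucocorticoid list, which holds the receptor gene Nr3c1 and 11 genes it is known to raise, had 3 higher and 4 lower of 12 genes, with a median of -0.25. With library size alone 3 were higher and 2 lower. Nr3c1 itself was called lower (log2 fold change -0.30, adjusted p = 0.0316, same test), but not with library size alone (-0.08, adjusted p = 0.523, same test). It passed in 2 of 8 fits with a mouse left out. The metallothionein genes Mt2 and Mt1 rose by 1.65 and 0.84 on the log2 scale (adjusted p = 2.20e-05 and 0.00240, same test), and Zbtb16 and Glul fell by 0.93 and 0.48 (adjusted p = 4.06e-05 and 6.95e-05, same test). Of the 31-base stretches of Mt2 and Glul, 58.1% and 20.4% occur in other gene models. All 6 amino acid catabolic genes linked to Klf15 were lower, with a median of -1.05 (-0.84 with library size alone, again 6 of 6) and no overlap between the genotypes. Gpt2, a mitochondrial alanine aminotransferase gene, fell from 48.2 ± 6.13 to 20.8 ± 0.890 normalized CPM (log2 fold change -1.21, adjusted p = 2.95e-06), and Bckdhb, a subunit gene of the branched-chain ketoacid dehydrogenase, from 22.3 ± 1.88 to 9.49 ± 0.762 (-1.23, adjusted p = 3.17e-06, both same test). These are counted against the 21.7% of all tested genes called lower. Genes of branched-chain amino acid breakdown were known to be lower in these data when the list was written, so that its count is not independent evidence.

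Among 18 other ubiquitin ligase genes expressed in muscle, 2 were higher and 8 lower, with a median of -0.10, and with library size alone 8 were higher and 3 lower. The largest decrease was that of Asb2, an ankyrin-repeat ligase subunit of muscle, from 534.5 ± 157.9 to 191.0 ± 37.4 normalized CPM (log2 fold change -1.48, adjusted p = 0.000305, same test). Wwp1 fell by 0.44 on the log2 scale, and Trim72, a gene of membrane repair, and Nedd4 rose by 0.42 and 0.17 (adjusted p = 8.77e-05, 0.00114 and 0.0272, same test). Trim54 and Trim55, the MuRF relatives of Trim63, had log2 fold changes of -0.28 and -0.30 (adjusted p = 0.00258 and 0.00795, same test), and with library size alone neither passed the test (-0.07 and -0.09, adjusted p = 0.292 and 0.381). Of the 31-base stretches of Trim72 and Trim54, 25.3% and 21.1% occur in other gene models. With single mice left out, an alternative added after seeing the data, Nedd4 passed in 2 of 8 fits, with adjusted p up to 0.0769 (same test). Of 17 genes for the SCF core, ubiquitin and its conjugating enzymes, 2 were higher and 7 lower (median -0.13), and with library size alone 6 were higher and 2 lower. Rbx1, the RING subunit of SCF complexes, fell from 53.1 ± 1.59 to 39.0 ± 0.874 and Ube2b, a conjugating enzyme gene, from 417.7 ± 21.03 to 273.0 ± 12.6, whereas the cullin genes Cul7 and Cul1 rose from 18.2 ± 0.868 to 29.1 ± 1.40 and from 81.9 ± 2.13 to 91.4 ± 2.06 (adjusted p = 9.81e-05, 2.08e-05, 2.20e-05 and 0.0281, same test). Cul1 passed in 4 of 8 fits with a mouse left out, with adjusted p up to 0.0845 (same test).

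Genes that respond when a muscle loses its nerve were mostly higher, while Trim63 was lower in the same mice. Of 12 denervation genes, 9 were higher, 1 was lower and 2 did not pass the test, against 22.2% of all tested genes called higher, with a median log2 fold change of 1.62. The list was written with earlier results of these data known, so that its count is not independent evidence. The acetylcholine receptor subunit gene Chrnd rose from 7.07 ± 0.459 to 44.4 ± 6.22 normalized CPM (2.65, adjusted p = 1.24e-07) and the adhesion molecule gene Ncam1 from 18.5 ± 0.735 to 61.8 ± 7.52 (1.74, adjusted p = 5.41e-07, both same test). The highest value was that of Myog, the myogenic factor known to activate Trim63 and Fbxo32 after denervation. Myog rose from 6.50 ± 1.46 to 55.8 ± 10.1 (3.10, adjusted p = 7.90e-07, same test). The 1 lower gene was Dach2, a repressor of Myog that itself falls on denervation. It fell by 1.30 (adjusted p = 5.14e-05, same test), so the list mixes genes of either direction. Counts were the same with library size alone (9 higher, 1 lower). By staining, the study saw marginally fewer fully innervated endplates in mutant soleus at 2 months. It found no significant increase in fully denervated fibres. Fibre types kept a checkerboard pattern in both genotypes, with a very small shift towards type II. The authors favour the reading that these small changes probably result from the myopathy and are not likely to mark relevant primary denervation. Fibres with myosin of embryonic or regenerating type were more frequent, at low and variable levels. Whether loss of nerve contact has a part in the values of this list was not tested.

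**Figure D5:**
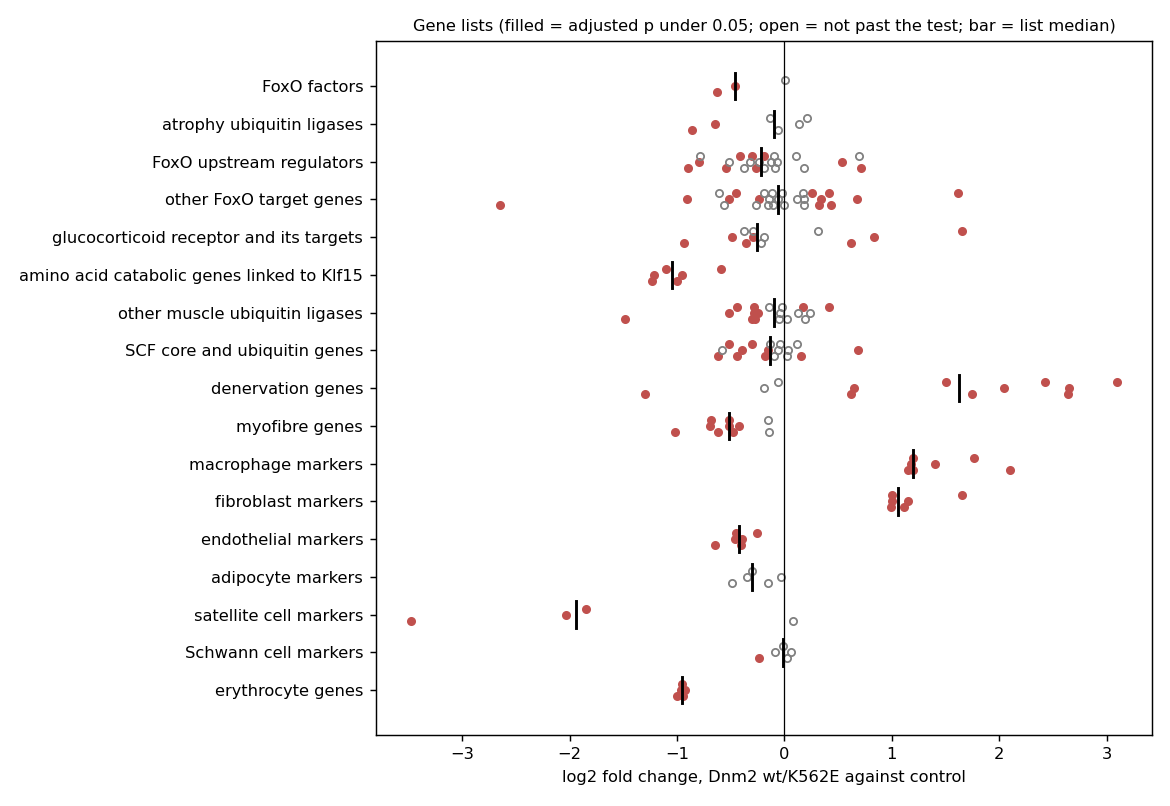
Log2 fold changes of the genes in 17 lists, Dnm2 wt/K562E against control (4 mice each), as filled points past the test and open points not past it, with the list median as a bar; points are spread vertically for sight only. The denervation, macrophage and fibroblast lists lie mostly to the right, and the amino acid catabolic, myofibre, endothelial and erythrocyte lists to the left.

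RNA of marker genes for several cell types differed between the genotypes. The part of tissue make-up in the results above was not tested. Defining myofibre genes were abundant in all mice, summing to 78304 to 85045 normalized CPM in controls and to between 51851 and 58159 in the mutant mice, and 8 of 10 were lower with a median of -0.52. The 2 that did not pass the test were Mb (-0.142) and Tnni1 (-0.155). Fbxo40, a gene of muscle fibres outside this list, differed by -0.05 in the same libraries and by 0.16 with library size alone. The other muscle ubiquitin ligase genes ran from -1.48 (Asb2) to 0.42 (Trim72). These are single genes, and no cause was tested with them. The 7 macrophage markers were all higher and summed to 72.8 to 135.5 in controls and 179.3 to 295.6 in mutant mice, and the 6 fibroblast markers were all higher as well (2366 to 3667 against 5209 to 6837). The 6 endothelial markers, of a cell type that also expresses Foxo1, were all lower, with a median of -0.43 (3 of 6 with library size alone) and sums of 1023 to 1093 in controls and 726.4 to 817.8 in mutant mice. None of the 5 adipocyte markers, of a cell type that expresses Klf15 and Foxo1, passed the test, and their sums of 88.1 to 470.5 and 149.0 to 264.5 overlapped. Of the Schwann cell markers 1 of 5 was lower (sums 157.9 to 178.2 and 132.4 to 164.8), and of the satellite cell markers 3 of 4 were lower (29.4 to 37.1 and 23.7 to 26.7). The 5 erythrocyte genes were lower (524.5 to 894.4 and 247.7 to 516.5), and at least 54.4% of the 31-base stretches of each globin gene occur in another gene. The called genes with the smallest p had log2 fold changes of -1.02 (Ckm) and -0.70 (Tnni2) for myofibres, 1.77 (Cd68) and 2.10 (Lgals3) for macrophages, 1.65 (Lum) and 1.11 (Pdgfra) for fibroblasts and -0.64 (Kdr) and -0.46 (Tie1) for endothelium. They were -1.84 (Myf5) and -3.47 (Calcr) for satellite cells, -0.24 (Mbp) for Schwann cells and -0.997 (Hba-a1) and -0.94 (Hba-a2) for erythrocytes. With library size alone the satellite cell list had 1 higher and 3 lower and the Schwann cell list no called gene (Mbp -0.03, adjusted p = 0.751, same test). No marker gene was at 0 in any mouse.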

How the data were processed

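Raw counts per gene were deposited by the authors for each of the 8 mice, without normalization. The authors trimmed the reads with Trimmomatic 0.33, aligned them with STAR 2.5.1b to GRCm38.p5 with Ensembl release 80 genes and counted them with featureCounts, each read overlapping several genes being counted for all of them. Whether strand was used is not given in the sources used here. The paper describes poly A-enriched libraries and the labels a total RNA kit.

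Of 22880 gene IDs, 22570 matched GENCODE M21 (GRCm38), which gave symbols, positions and exon lengths. Counts were filtered (filterByExpr, minimum count 10, minimum total 15), scaled by TMM and tested with the quasi-likelihood test of edgeR 4.0.16 (R 4.3.3), with Benjamini-Hochberg adjustment over 14001 genes and a call at an adjusted p under 0.05. The study used the exact test of edgeR, tried here as an alternative beside DESeq2 1.42.0, other scalings and filters, a replicate block and leaving out each mouse. The fit was checked on simulated counts in which a small share of genes changed, as many up as down. No shift in scaling between genotypes was simulated, so the check does not bear on the choice of scaling. Log2 CPM used a prior count of 2. Standard errors and 95% intervals are those implied by the F statistic. Counts of mice of 1 genotype differed by more than sampling noise (chi-square per degree of freedom at least 13 in all 12 pairs). The p-values of edgeR set the difference between genotypes against the spread between 4 mice per genotype. The estimate of that spread also draws on the other tested genes. Depth sets counting error only.

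The genes and lists were chosen with earlier results of these data known. Fbxo32 and Fbxo30 are given for each mouse after their values were seen. Named were the 10 genes, Dnm2 and, from each list, up to 2 called genes with the smallest p in each direction. Mstn, Foxo6 and Myog, as ends of a range, and Gadd45a and Asb2 where called largest, follow from the lists, and Pdk4, Nr3c1, Trim54 and Trim55 were named after their values were seen. Upstream sequences come from RefSeq (GRCm38.p6).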

Additional observations from a re-analysis of the deposited data

Results flagged for a closer look

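Among 26 groups of 4 mice (the 10 genes and 3 ratios in each genotype), 2 held a mouse whose gap to its neighbour passed Dixon's 95% critical value, where chance flags about 1 group in 20. Klf15 was at 22.7 normalized CPM in Dnm2 wt/K562E mouse 1, a gap of 0.88 of the range, and the other 3 mutant mice were at 33.03 to 34.5. The log2 ratio of Trim63 to Fbxo32 was -0.96 in control 1, a gap of 0.924 of the range, and 0.36 to 0.47 in the other controls.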

How the results depend on the processing

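Foxo4, Klf15, Trim63 and Fbxo31 were lower past the threshold in all 17 alternatives, and Foxo1 in 11 of them. The number of the 10 genes called higher was 1 in place of 0 with library size alone and with at least 10 counts in every mouse (Fbxo30 in both), and it ran from 0 to 1 when each mouse was left out. In the replicate block by the title numbers, 4 genes were lower and Foxo1 missed the threshold (log2 fold change -0.48, adjusted p = 0.0747, quasi-likelihood test of edgeR). By the description numbers 5 were lower. A shared number does not mark the same animal, and deviations of such mice correlated at -0.11 and -0.03 on average, so the numbers were not taken as pairs. The sign turned for Fbxo32 (0.0845) and Fbxo40 (0.155) with library size alone. That of Foxo3, at 0.00 in the comparison reported, turned with DESeq2 (-0.0026), median-ratio factors (-0.0020), without mitochondrially encoded genes (-0.0043), without a filter (-0.0004) and when single mice were left out (-0.0703 to 0.130). With each mouse left out, the ratio differences ran from -1.05 to -0.58 for Trim63 to Fbxo32, from -0.55 to -0.38 for Foxo1 to Foxo3 and from -0.77 to -0.37 for Klf15 to Foxo1. In the same order, the unadjusted exact permutation p ran from 0.0286 to 0.2, from 0.0286 to 0.0571 and from 0.0286 to 0.2. The causes were not tested. Every gene had at least 575 counts in each mouse, so the spread between mice, not depth, limits these values.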
